A study of Mus musculus with 6 samples.

Results

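The genes described here are 9 that carry the peroxisome proliferator-activated receptor (PPAR) fuel switch, taken by symbol from a table of 54093 genes. They are the receptors Ppara and Ppard and 7 of their targets, Angptl4, Cpt1a, Cpt1b, Pdk4, Ucp2, Ucp3 and Slc25a34, and each symbol stood on 1 line of the table. The list was drawn up with the difference between the VO and sham libraries already known, so the values of these genes in that comparison are a description and carry no test. The name under which they were grouped, higher in overload, held for the mean of 6 of the 9. The means of both receptors and of Cpt1b were lower in VO, so the genes are called by their roles below.

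RNA-seq measured the right atrium (RA) of wild-type C57BL/6 mice at P21 in 3 sham and 3 volume overload (VO) libraries. The pups, male or female, had been operated on at P7. In the VO group a needle puncture joined the abdominal aorta to the inferior vena cava, an aortocaval fistula (ACF) that sends aortic blood back to the right heart, and the sham group had surgery without a fistula. Both groups shared genotype, strain, age and tissue, which the design text narrows to the free wall. The sources used here do not give the sex of each sample, whether a library came from 1 atrium or a pool, or the size of the shunt in the sequenced animals, and 1 protocol label speaks of a rat although the organism is given as mouse. P-values below therefore measure the spread between these libraries, which may be partly technical. The libraries are named by group and number, from sham 1 to VO 3.

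PPARs are nuclear receptors that bind fatty acids and their derivatives, pair with a retinoid X receptor (RXR) on DNA and raise the transcription of genes for the uptake, mitochondrial import and oxidation of fatty acids. In heart muscle, which burns mostly fatty acids after birth, PPAR-alpha and PPAR-delta are the forms best known for this. Their targets act at separate steps: ANGPTL4 blocks lipoprotein lipase outside the cell, CPT1 passes acyl groups to carnitine at the outer mitochondrial membrane, PDK4 shuts the entry of pyruvate into the citric acid cycle, and carriers such as UCP2 and UCP3 work in the inner mitochondrial membrane.

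A level is given here in FPKM, fragments per kilobase of gene scaled by library, so levels of different genes can be set side by side. The deposited scaling used a size adjusted between libraries, not the plain total of fragments in each. The libraries held 15963082 to 17237903 fragments on genes, and an FPKM of 1 on 1 kilobase stood for 15.6 to 18.1 fragments. A log2 difference is VO minus sham on log2(FPKM + 0.1), with its standard error (SE) from limma, and understates the change of genes of low level. Over the 12627 genes with a mean of at least 1 FPKM, limma with Benjamini-Hochberg adjustment called 1 gene (0.00792%) at a threshold of 0.05, Nppb, which was lower in VO and is named for being the one called. The call was lost, with 0 called, when any 1 library was left out. At an unadjusted p under 0.05 there were 491 higher genes (3.89%) and 1020 lower genes (8.08%), and voom, which models fragments, had 4.32% higher and 8.47% lower. That split depended on scaling, with 1085 higher and 486 lower on TPM. With 3 libraries in each group, the smallest two-sided p of an exact permutation test is 0.1. The study itself reports far more genes at an adjusted p under 0.05 with DESeq2, which was not run here.

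The promoters of the genes are shown because 5 of the targets stood together in these libraries and because PPARs bind a known element, a direct repeat of AGGTCA spaced by 1 base. RefSeq windows on GRCm38.p6, from 250 bases before to 50 bases after the start of transcription, were at hand for 7 of the 9 genes, the others being Angptl4 and Cpt1b. Printed 5′ to 3′ on the strand of the gene, up to whichever came first of the RefSeq start and the start of the gene in the table, are those of the 4 targets above sham in every VO library that had one, with AGGTCA or its reverse complement in capitals. They are chr19:3323051-3323300 (plus strand) for Cpt1a, chr6:5496310-5496528 (minus strand) for Pdk4, chr7:100472741-100472989 (plus strand) for Ucp3 and chr4:141623835-141624084 (minus strand) for Slc25a34.
Cpt1a: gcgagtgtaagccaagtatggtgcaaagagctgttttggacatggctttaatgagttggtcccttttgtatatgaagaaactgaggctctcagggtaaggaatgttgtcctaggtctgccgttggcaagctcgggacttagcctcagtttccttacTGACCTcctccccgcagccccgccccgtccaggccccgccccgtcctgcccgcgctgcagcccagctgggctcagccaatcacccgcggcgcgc
Pdk4: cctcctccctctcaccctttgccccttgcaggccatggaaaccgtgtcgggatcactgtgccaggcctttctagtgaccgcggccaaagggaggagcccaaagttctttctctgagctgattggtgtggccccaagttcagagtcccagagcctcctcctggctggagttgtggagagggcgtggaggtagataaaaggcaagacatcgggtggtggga
Ucp3: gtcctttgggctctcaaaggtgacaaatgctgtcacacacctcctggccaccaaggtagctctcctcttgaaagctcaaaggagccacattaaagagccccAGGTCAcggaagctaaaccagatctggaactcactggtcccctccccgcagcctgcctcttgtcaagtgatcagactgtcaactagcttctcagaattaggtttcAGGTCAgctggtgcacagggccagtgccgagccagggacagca
Slc25a34: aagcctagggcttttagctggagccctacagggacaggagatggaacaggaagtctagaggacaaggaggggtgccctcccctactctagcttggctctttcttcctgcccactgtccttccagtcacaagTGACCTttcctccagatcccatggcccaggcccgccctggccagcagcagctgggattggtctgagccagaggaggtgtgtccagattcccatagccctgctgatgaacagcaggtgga
The hexamer AGGTCA, searched on both strands, was in 3 of the 7 windows and in 16.3% of the 32851 RefSeq promoter windows of the same length. Ucp3 held it on its own strand at 149 and 44 bases before the start, Slc25a34 on the opposite strand at 119 bases and Cpt1a on the opposite strand at 94 bases. The windows of Pdk4, Ucp2, Ppara and Ppard held none. The full repeat AGGTCANAGGTCA was in 0 of the 7 windows and in 0.0396% of all, and the looser AGGNCANAGGNCA in 0 of the 7 and in 0.381%. Both longer motifs contain or resemble the hexamer, so the counts are not independent. These matches are letters in short windows and say nothing of binding in the atrium. The 7 windows were 55% to 74.7% G and C, where the median of all windows was 52.7%.

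Across the 9 genes, the 3 VO libraries were all above the 3 sham libraries for 5 targets, all below them for the receptor Ppard, and overlapped with them for Ppara, Cpt1b and Ucp2. Over all tested genes, 8.25% had VO above sham and 12.9% had VO below sham in this way, and since the genes were picked for this contrast nothing is read from the comparison. In bulk RNA of an atrium, fewer cells of a type and less RNA per cell cannot be told apart. Of the 9 genes, 8 passed the filter on low values, and Cpt1b did not. The plot of levels by library shows every value.

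**Figure D1:**
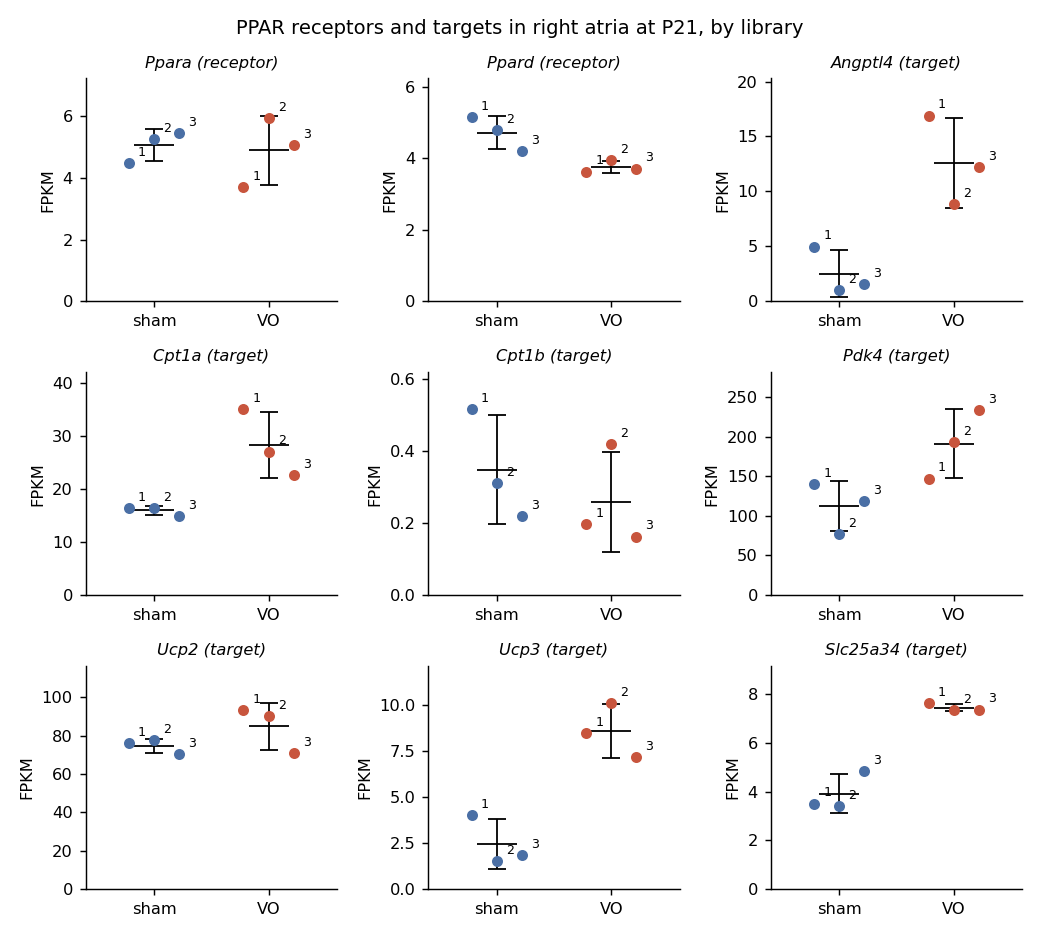
FPKM of the 9 genes in each library (points, numbered by replicate), with sham in blue and VO in red, and the mean with its SD over 3 libraries per group as bars. The VO points of Angptl4, Cpt1a, Pdk4, Ucp3 and Slc25a34 all lie above the sham points, those of Ppard all lie below, and each axis starts at 0.

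The receptors did not share the direction of these targets. Ppara (ENSMUSG00000022383, chr15:85734983-85802819, plus strand), the receptor that drives fatty acid oxidation in liver and heart, was at 4.47, 5.25 and 5.44 FPKM in sham 1, sham 2 and sham 3 and at 3.69, 5.92 and 5.06 FPKM in VO 1, VO 2 and VO 3. Both the lowest and the highest library were VO, so the sham values lay inside the VO range. The means were 5.05 ± 0.512 FPKM in sham and 4.89 ± 1.12 FPKM in VO (SD, n = 3 each), a log2 difference of -0.07 with an SE of 0.19. It was 0.12 without VO 1, and the sign also turned on TPM, at 0.07.

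Ppard (ENSMUSG00000002250, chr17:28232700-28301474, plus strand) encodes PPAR-delta, the more widely expressed receptor. It was at 5.15, 4.79 and 4.21 FPKM in the sham libraries and at 3.63, 3.94 and 3.71 FPKM in the VO libraries. Every VO library was below every sham library. The means were 4.72 ± 0.474 FPKM in sham and 3.76 ± 0.162 FPKM in VO (SD, n = 3 each), a ratio of sham to VO of 1.25. Its log2 difference of -0.31 (SE 0.12) was between -0.39 and -0.25 with any 1 library left out and -0.18 on TPM.

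The third PPAR, Pparg, is the receptor of fat cells and is not among the 9. It was at 1.55, 1.28 and 1.71 FPKM in the sham libraries and at 2.39, 2.16 and 14.3 FPKM in the VO libraries. All VO libraries were above sham, as for 5 of the targets. VO 3 was far above the others, and it was also the library with genes of fat cells described further on. The log2 difference of 1.44 (SE 0.67) did not pass, with an adjusted p of 0.423 by limma, and was 0.57 without VO 3. Rxra, the RXR partner with a wide tissue range, was at 10.7 ± 0.967 FPKM in sham and 12 ± 0.996 FPKM in VO (adjusted p = 0.529 by limma). Ppargc1a, the coactivator PGC-1alpha, was at 23.5 ± 2.78 FPKM in sham and 22.4 ± 1.62 FPKM in VO (adjusted p = 0.821 by limma).

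Among all 20 listed partners and coregulators of PPARs, limma called 0 after adjustment. At an unadjusted p under 0.05, 0 were higher and 1 was lower, as with voom, which also called 0 after adjustment. The lower gene was Esrra, the estrogen-related receptor that works with PGC-1alpha on mitochondrial genes, with a log2 difference of -0.57, or -0.33 without VO 1, and an adjusted p of 0.414. The median log2 difference of the 20 was 0.07, where that of all tested genes was -0.01.

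Angptl4 (ENSMUSG00000002289, chr17:33773750-33781575, minus strand), the secreted inhibitor of lipoprotein lipase, had the largest log2 difference of the 9. It was at 4.97, 1.04 and 1.59 FPKM in the sham libraries and at 16.9, 8.83 and 12.2 FPKM in the VO libraries, read from 59 to 1009 fragments. The groups did not overlap, and sham 1 was well above the other sham libraries. The mean of 12.6 ± 4.07 FPKM in VO was 4.99 times that of 2.53 ± 2.13 FPKM in sham (SD, n = 3 each), and the log2 difference was 2.53 (SE 0.53). Leaving out sham 1 gave 3.15 and leaving out sham 2 gave 2.07, the ends of its range.

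The lipase itself and its anchor did not pass the test, which called 1 gene of 12627 and is not given for Angptl4. Lpl, lipoprotein lipase, was at 155 ± 23.6 FPKM in sham and 174 ± 25.1 FPKM in VO (adjusted p = 0.639 by limma). Gpihbp1, which holds the enzyme on the capillary wall, was at 13.8 ± 2.08 FPKM in sham and 14 ± 1.59 FPKM in VO (adjusted p = 0.938 by limma). Of 11 listed genes of lipase control and lipolysis, 8 were tested and limma and voom each called 0 after adjustment. By both tools, 1 was higher and 1 lower at an unadjusted p under 0.05. The higher one was Lipe, hormone-sensitive lipase, which read 18.8 FPKM in VO 3 and 6.54 and 7.69 FPKM in VO 1 and VO 2 (log2 difference 0.98, or 0.52 without VO 3, adjusted p = 0.41). The lower one was Angptl7, a relative of Angptl4, at 8.7 ± 1.81 FPKM in sham and 5.52 ± 1.27 FPKM in VO (log2 difference -0.65, adjusted p = 0.404).

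Cpt1a and Cpt1b encode the forms of carnitine palmitoyltransferase 1 known from liver and from muscle, the gate for long fatty acids into mitochondria. Cpt1a (ENSMUSG00000024900, chr19:3323301-3385732, plus strand) was at 16.4, 16.5 and 15 FPKM in the sham libraries and at 35.1, 27.1 and 22.7 FPKM in the VO libraries. The sham libraries lay close together and all VO libraries were above them, with VO 1 highest. The mean of 28.3 ± 6.26 FPKM in VO was 1.77 times that of 16 ± 0.805 FPKM in sham (SD, n = 3 each), with a log2 difference of 0.80 (SE 0.16). With any 1 library left out, that difference was between 0.63 and 0.95.

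Cpt1b (ENSMUSG00000078937, chr15:89416405-89425863, minus strand) was at 0.515, 0.31 and 0.219 FPKM in the sham libraries and at 0.196, 0.418 and 0.162 FPKM in the VO libraries. These values rested on 9 to 27 fragments and the groups overlapped. The log2 difference was -0.33 (SE 0.45) in the fit without a filter and moved between -0.63 without VO 2 and -0.08 without sham 1. The muscle form was thus listed at a mean of 0.348 ± 0.152 FPKM in sham atria, where the liver form was at 16 ± 0.805 FPKM.

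The position of Cpt1b bears on how that level can be read. In the GENCODE M21 annotation of GRCm38, 81.4% of its exonic bases lay in exons of Gm44502, a gene on the same strand (chr15:89416405-89429696) that runs through Cpt1b and its upstream neighbour Chkb. Gm44502 was at 0 FPKM in all 6 libraries, and Chkb, with 50.7% of its exonic bases shared on the same strand, was at 0.139 to 0.381 FPKM. Over 20068 protein-coding genes with no shared exonic base on their strand, 52% reached a mean of 1 FPKM. Of the 203 genes with more than 50% and up to 90% shared, 15.3% did, and of the 201 genes with more than 90% shared, 0.498% did. By default featureCounts leaves out a fragment that falls on several genes, and the setting used for this table is not given in the sources used here. The part of the overlap in the level of Cpt1b was not tested. Each of the other 8 genes shared under 10% of its exonic bases with any gene, Ucp2 at 4.36% with the opposite-strand gene Dnajb13.

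**Figure D2:**
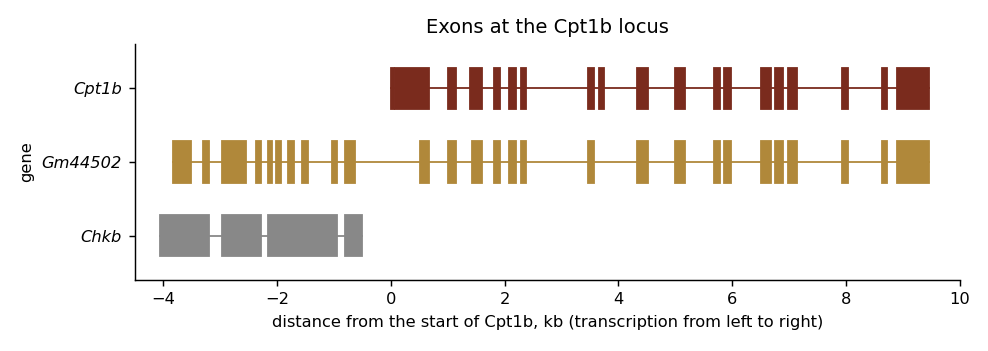
Exons (boxes) of Cpt1b, of the gene Gm44502 and of Chkb, all on the minus strand and drawn left to right in the direction of transcription, against the distance in kb from the start of Cpt1b. The exons of Gm44502 cover 81.4% of the exonic bases of Cpt1b and 50.7% of those of Chkb.

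Past the gate, other genes of the carnitine shuttle did not pass the test, which called 1 gene of 12627 and is not given for Cpt1a. Slc25a20, which carries acylcarnitine across the inner membrane, was at 15.5 ± 1.58 FPKM in sham and 18.6 ± 2.88 FPKM in VO (log2 difference 0.26, or 0.14 without VO 3, adjusted p = 0.466 by limma). Cpt2, which frees the acyl group inside, was at 49.2 ± 2.05 FPKM in sham and 59.9 ± 10.9 FPKM in VO (log2 difference 0.27, adjusted p = 0.453 by limma). Every VO library of Cpt2 was above sham, with VO 3 highest, and the log2 difference was 0.12 without VO 3. Cpt1c, the brain form, was near 1 FPKM in both groups, at 1.09 ± 0.14 FPKM in sham and 1.23 ± 0.114 FPKM in VO. Of the 8 listed genes of the shuttle and of malonyl-CoA, its inhibitor, 0 passed in either direction, adjusted or unadjusted, by limma or voom, and their median log2 difference was 0.18. The largest was that of Acaca, named after its values were seen, which makes malonyl-CoA in tissues that build fat. Its log2 difference of 0.77 (adjusted p = 0.507 by limma) was 0.15 without VO 3.

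Pdk4 (ENSMUSG00000019577, chr6:5483351-5496309, minus strand) encodes the pyruvate dehydrogenase kinase that is known to rise in fasting. It had the highest mean level of the 9 genes in both groups, though Ucp2, at 77.8 FPKM, was above it in sham 2. Pdk4 was at 139.5, 77.3 and 119 FPKM in the sham libraries and at 147, 193 and 233 FPKM in the VO libraries. The groups did not overlap, though VO 1 and sham 1 were close. The mean of 191 ± 43.2 FPKM in VO was 1.71 times that of 112 ± 31.7 FPKM in sham (SD, n = 3 each), a log2 difference of 0.79 (SE 0.26). It was lowest, at 0.54, without sham 2, and highest, at 0.97, without sham 1 or without VO 1.

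The other 3 kinases of the same enzyme did not pass the test, which called 1 gene of 12627. No p is given for Pdk4, so the test does not set it apart from them. Pdk1 was at 15.5 ± 1.5 FPKM in sham and 16.1 ± 0.495 FPKM in VO (log2 difference 0.06, adjusted p = 0.816 by limma), and the sign turned without sham 2. Pdk2, the most abundant of them, was at 74.7 ± 5.2 FPKM in sham and 68.6 ± 14.6 FPKM in VO (log2 difference -0.14, adjusted p = 0.707 by limma), and the sign turned without VO 1 and under quantile normalization. Pdk3 was at 12.7 ± 0.395 FPKM in sham and 11.2 ± 0.461 FPKM in VO (log2 difference -0.18, adjusted p = 0.44 by limma). Every VO library of Pdk3 was below every sham library. Of the summed FPKM of the 4 kinases, Pdk4 made up 58.8%, 42.8% and 52.6% in the sham libraries and 65.1%, 64.5% and 69.5% in the VO libraries. The share of Pdk4 was thus higher in each VO library than in any sham library, while the sum ran from 180.5 to 237 FPKM in sham and from 226 to 336 FPKM in VO and overlapped. Of 13 other genes of the pyruvate dehydrogenase switch, which include the phosphatases that oppose the kinases, 0 passed in either direction, adjusted or unadjusted, by limma or voom, with a median log2 difference of -0.23.

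Ucp2 and Ucp3 lie side by side on the plus strand of chromosome 7, with 6904 bases between the end of Ucp3 and the start of Ucp2. Ucp3 (ENSMUSG00000032942, chr7:100472990-100486432) is the uncoupling protein of skeletal muscle and heart. It was at 4.02, 1.5 and 1.82 FPKM in the sham libraries and at 8.47, 10.1 and 7.16 FPKM in the VO libraries, from 81 to 515 fragments. The groups did not overlap, and sham 1 was again the highest sham library. The mean of 8.57 ± 1.46 FPKM in VO was 3.50 times that of 2.45 ± 1.37 FPKM in sham (SD, n = 3 each), a log2 difference of 1.88 (SE 0.35) that was between 1.61 and 2.29 with any 1 library left out.

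Its neighbour Ucp2 (ENSMUSG00000033685, chr7:100493337-100502020), a carrier found in many cell types including immune cells, had a smaller difference. It was at 76, 77.8 and 70.4 FPKM in the sham libraries and at 93.3, 90.3 and 71 FPKM in the VO libraries. VO 3 lay within the sham range, while VO 1 and VO 2 were above it. The means were 74.7 ± 3.84 FPKM in sham and 84.9 ± 12.1 FPKM in VO (SD, n = 3 each), a ratio of 1.14 and a log2 difference of 0.17 (SE 0.14). It was 0.30 without VO 3, 0.10 without VO 1 and 0.39 under quantile normalization. Ucp1, the uncoupling protein of brown fat, was listed at 0 FPKM in 5 libraries and at 254 FPKM in VO 3.

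Slc25a34 (ENSMUSG00000040740, chr4:141618824-141623821, minus strand) belongs to the same family of mitochondrial carriers, and its substrate is less well known. It was at 3.51, 3.39 and 4.83 FPKM in the sham libraries and at 7.64, 7.35 and 7.38 FPKM in the VO libraries. The VO libraries were close to each other and all above sham. The mean of 7.46 ± 0.158 FPKM in VO was 1.91 times that of 3.91 ± 0.798 FPKM in sham (SD, n = 3 each), a log2 difference of 0.93 (SE 0.15), between 0.84 and 1.09 with any 1 library left out.

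Its closest relative, Slc25a35, was at 1.07, 1.01 and 1.1 FPKM in the sham libraries and at 0.585, 1 and 4.73 FPKM in the VO libraries. Only VO 3 was above sham, and 31.3% of the exonic bases of Slc25a35 lay opposite another gene. Of the 9 listed carriers related to the UCPs, limma and voom called 0 after adjustment, and by both 0 were higher and 1 was lower at an unadjusted p under 0.05. That gene was Slc25a4, the ADP/ATP carrier of muscle, at 1262 ± 403 FPKM in sham and 649 ± 222 FPKM in VO (log2 difference -0.98, adjusted p = 0.404 by limma). Its log2 difference was -0.69 without VO 1 and -0.73 without sham 1.

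**Figure D3:**
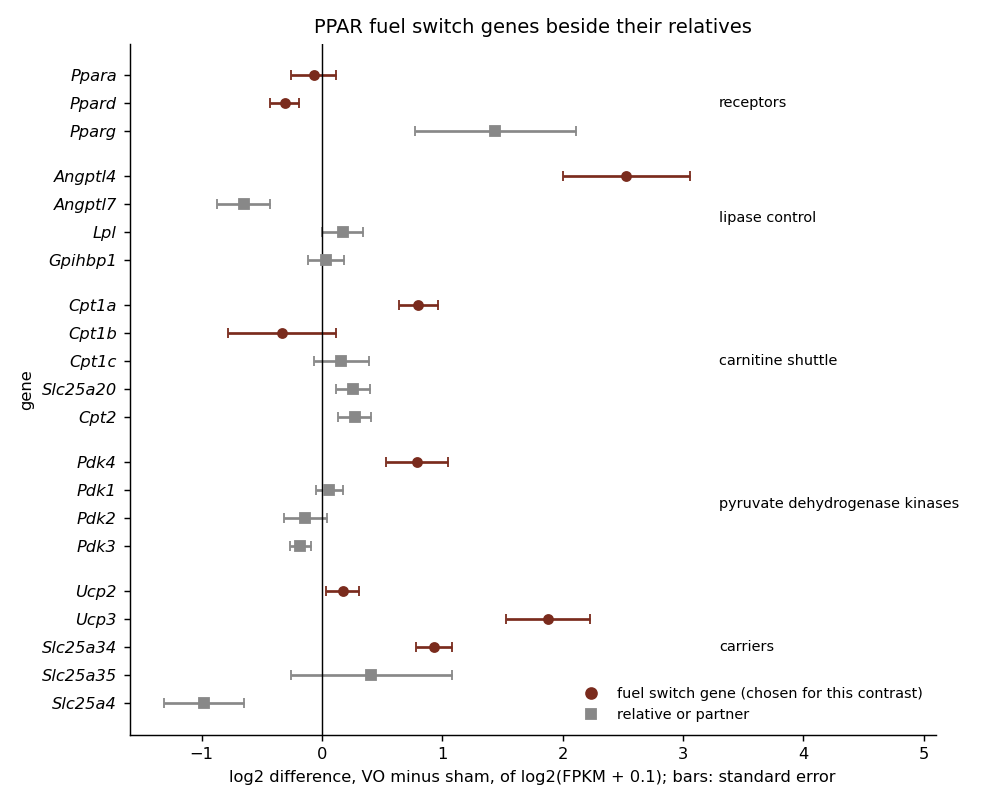
Log2 difference, VO minus sham, on log2(FPKM + 0.1), with its SE as bars, for the 9 fuel switch genes (circles) and relatives or partners (squares), grouped by step. Angptl4 at 2.53, Ucp3 at 1.88, Slc25a34 at 0.93, Cpt1a at 0.80 and Pdk4 at 0.79 lie to the right, and Ppard at -0.31 and Cpt1b at -0.33 to the left.

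In sham atria the levels ran from Pdk4 through Ucp2, Cpt1a, Ppara, Ppard, Slc25a34, Angptl4 and Ucp3 to Cpt1b. The place of Cpt1b in this order is limited by its shared exons, described above, whose part in its level was not tested. Of the neighbours in that order, the sham ranges were apart between Ucp2 and Cpt1a, between Cpt1a and Ppara and between Ucp3 and Cpt1b, and overlapped for the others. Ucp3 and Angptl4, with the largest ratios, were therefore among the lowest of the targets in sham, at 2.45 and 2.53 FPKM.

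Set against each other, the 7 targets had a median log2 difference of 0.80 and the 2 receptors of -0.19, a gap of 0.99. Without Cpt1b the targets had a median of 0.87. When each gene was centred on its mean of log2(FPKM + 0.1) over the 6 libraries and averaged by role, the targets minus the receptors stood at -0.15, -0.92 and -0.67 in the sham libraries and at 0.85, 0.46 and 0.43 in the VO libraries. Sham 1 was the sham library nearest to VO. The targets alone were at -0.07, -0.78 and -0.59 in sham and at 0.54, 0.55 and 0.36 in VO. Without Cpt1b, which did not pass the filter, they were at -0.2, -0.93 and -0.65 in sham and at 0.7, 0.57 and 0.51 in VO. The receptors alone were at 0.08, 0.14 and 0.07 in sham and at -0.31, 0.09 and -0.07 in VO, where VO 2 lay within the sham range. Since the genes were chosen for this contrast, the gap is given without a test.

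**Figure D4:**
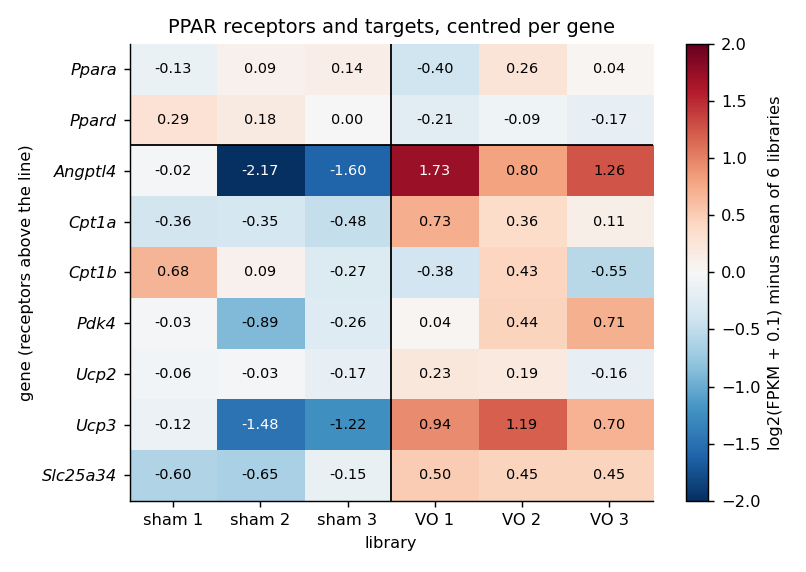
Log2(FPKM + 0.1) of each gene minus its mean over the 6 libraries, by library (columns) and gene, with receptors above the horizontal line and sham left of the vertical line; red is above the mean and blue below. Angptl4 runs from -2.17 in sham 2 to 1.73 in VO 1 and Ucp3 from -1.48 in sham 2 to 1.19 in VO 2, while Ppara stays between -0.40 and 0.26.

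Within the targets, the likeness of each gene to their mean centred value over the 6 libraries was described by Pearson's r. It was 0.997 for Ucp3, 0.974 for Angptl4, 0.869 for Cpt1a, 0.844 for Pdk4, 0.84 for Slc25a34, 0.599 for Ucp2 and -0.089 for Cpt1b, each gene being part of that mean. Angptl4 and Ucp3, with the widest spread of centred values, weigh most in the mean. For the receptors, r with that mean was -0.303 for Ppara and -0.674 for Ppard. Among 11070 other genes compared, those with the highest r were Ptpra (0.982), Akr1b8 (0.978), Usp45 (0.978), Ccnl1 (0.973) and Slc39a1 (0.972). Their own log2 differences were small, from 0.07 for Slc39a1 to 0.24 for Akr1b8 and Ccnl1. The 6 points share the division into 3 sham and 3 VO libraries.

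Other targets of PPARs were read from a list of 38 genes that leaves out the 9, of which 34 were tested. Limma and voom called 0 after adjustment. At an unadjusted p under 0.05, limma had 3 higher and 1 lower and voom 4 higher, the added gene being Acsl1, and 1 lower, where 3.89% of all tested genes were higher and 8.08% lower by limma and 4.32% and 8.47% by voom. The median log2 difference of the 34 was 0.15, with 26 above 0 and 8 below, where the median of all tested genes was -0.01. Without VO 3, the library with genes of fat cells, the median of the list was 0.06 and that of all tested genes -0.02. On TPM the median of all genes was 0.13 and that of the list 0.29.

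Of the 3 higher genes, Plin2, which coats lipid droplets, was at 9.88, 9.46 and 9.32 FPKM in the sham libraries and at 16.7, 11.9 and 20.1 FPKM in the VO libraries (log2 difference 0.73, adjusted p = 0.371 by limma). Its groups did not overlap, VO 3 was its highest library, and its log2 difference was 0.56 without VO 3. Acot1 and Acot2, which release fatty acids from coenzyme A, are close copies of each other whose fragments may be hard to assign. Acot2 was at 11.1 ± 0.699 FPKM in sham and 15.4 ± 3.55 FPKM in VO (log2 difference 0.44, or 0.28 without VO 1, adjusted p = 0.411 by limma). Acot1 was at 2.36 ± 0.384 FPKM in sham and 3.7 ± 1.08 FPKM in VO (log2 difference 0.60, adjusted p = 0.414 by limma), and its groups overlapped. The lower gene was Etfb, an electron carrier of beta-oxidation, at 42.1, 29.3 and 25.2 FPKM in the sham libraries and at 7.2, 16.5 and 15 FPKM in the VO libraries (log2 difference -1.37, adjusted p = 0.356 by limma). As with Cpt1b, much of Etfb is shared on its own strand, 58.2% of exonic bases, with Gm45233 and a microRNA gene.

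Several of the 9 genes are also known to respond to fasting, glucocorticoids or low oxygen, so lists for these were read. Of 15 glucocorticoid and fasting genes, 14 were tested and limma and voom called 0 after adjustment. The median log2 difference was -0.31, where that of all tested genes was -0.01. At an unadjusted p under 0.05, 3.89% of all tested genes were higher and 8.08% lower by limma, and 4.32% and 8.47% by voom. By both tools, 2 of the 14 were higher and 5 lower at that threshold. The higher ones were Foxo1, a transcription factor of fasting that acts on Pdk4, at 7.4 ± 0.517 FPKM in sham and 9.44 ± 0.774 FPKM in VO (adjusted p = 0.404), and Mt1, a metallothionein (log2 difference 0.44, adjusted p = 0.411). Lower were, with the smallest p first, Irs2, an insulin signalling adaptor (log2 difference -0.54, adjusted p = 0.404), Klf15, a glucocorticoid-driven factor (log2 difference -0.89, adjusted p = 0.406), and Ddit4, an inhibitor of mTORC1 (log2 difference -1.05, adjusted p = 0.406), and then Sgk1 and Klf9. Without VO 1, the library with the highest macrophage and lowest cardiomyocyte marker sums, the log2 difference was -0.50 for Klf15 and -0.60 for Ddit4. Of 13 hypoxia genes, 12 were tested, and limma called 0 after adjustment and 0 at an unadjusted p under 0.05. Voom had 0 after adjustment and 2 lower at an unadjusted p under 0.05, Slc2a1 and Hk2. Acsl1, Sgk1, Klf9, Slc2a1 and Hk2 are named because their counts are, after their values had been seen. The hypoxia genes had a median log2 difference of 0.04.

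Cell types were checked in the same libraries by their markers. Myl7, an atrial myosin light chain, was at 2586 to 8501 FPKM, and the other atrial markers Myl4, Nppa and Sln were also present in all 6 libraries. The summed FPKM of the 8 cardiomyocyte markers was 5290 to 5578 in sham and 3119.6 to 4953 in VO, and that of the 4 atrial markers 10406 to 16633 in sham and 4534 to 10021 in VO. VO 1 was the lowest library for both sums. Of the cardiomyocyte markers, Pln in VO 1, at 142 FPKM, lay within its sham range of 133 to 166 FPKM, and Ttn was lowest in VO 3. The other cardiomyocyte markers were each lowest in VO 1. The 9 skeletal muscle markers summed to 151 to 209 FPKM in sham and 58 to 108 FPKM in VO, nearly all Ckm, which heart muscle also expresses, with Myh1 at 0 throughout. The 3 ventricular markers summed to 14.5 to 71.1 FPKM in sham and 11.7 to 27.9 FPKM in VO. Among them, Myl2 was at 60.4, 2.02 and 56 FPKM in the sham libraries and at 6.95, 1.54 and 20.6 FPKM in the VO libraries. What this uneven level means for the 9 genes was not tested. The 6 endothelial markers summed to 202 to 213 FPKM in sham and 213 to 222 FPKM in VO, and the 7 fibroblast markers to 654 to 677 and 662 to 909.

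Fat cells stood out in a single library. The 8 adipocyte markers summed to 5.05 to 8.54 FPKM in sham, to 3.5 and 7.69 FPKM in VO 1 and VO 2 and to 679 FPKM in VO 3. Adipoq, the adiponectin gene, was at 48.7 FPKM in VO 3, at 0 in VO 1 and VO 2 and at most 0.489 FPKM in sham. Ucp3, Pdk4, Angptl4 and Cpt1a are also expressed in brown fat, and the part of these cells in VO 3 was not tested. Of the 4, Pdk4 had its highest level in VO 3, at 233 FPKM beside 147 and 193 FPKM in VO 1 and VO 2. Cpt1a and Ucp3 had their lowest VO level there. In VO 1 and VO 2, where Ucp1 and Adipoq were at 0, Ucp3 was at 8.47 and 10.1 FPKM, both above its 7.16 FPKM in VO 3. Without VO 3 the log2 differences were 2.53 for Angptl4, 0.95 for Cpt1a, 0.63 for Pdk4, 2 for Ucp3 and 0.94 for Slc25a34.

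Macrophage genes were high in another VO library. The 8 markers summed to 198 to 263 FPKM in sham and to 742, 232 and 287 FPKM in VO 1, VO 2 and VO 3. Adgre1, which encodes a surface protein of macrophages, was at 62.1 FPKM in VO 1 and at 9.76 to 14.6 FPKM in the other 5 libraries. Lyz2 gave 485 of the 742 FPKM in VO 1. Cd163, at 6.52 FPKM there, lay within its sham range of 6.07 to 7.54 FPKM, and the other markers were each highest in VO 1. Ucp2, Angptl4, Cpt1a and Slc25a34 had their highest level in VO 1. For Slc25a34 the margin was small, with 7.64 FPKM beside 7.35 and 7.38 FPKM in VO 2 and VO 3. Ucp2 was at 93.3 FPKM in VO 1 and at 90.3 FPKM in VO 2, where Adgre1 was at 11.6 FPKM. Angptl4 and Cpt1a had wider margins. VO 1 also had the highest fibroblast sum, 909 FPKM, and the lowest cardiomyocyte sum, 3119.6 FPKM. The part of macrophages or of these other cells in the levels was not tested. Without VO 1 the log2 differences were 2.29 for Angptl4, 0.63 for Cpt1a, 0.97 for Pdk4, 0.10 for Ucp2, 1.88 for Ucp3 and 0.91 for Slc25a34. The number of targets with VO above sham was 5 with any 1 library left out other than VO 3, and 6 without VO 3, where 11.4% to 16.1% of all tested genes were above in this way.

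**Figure D5:**
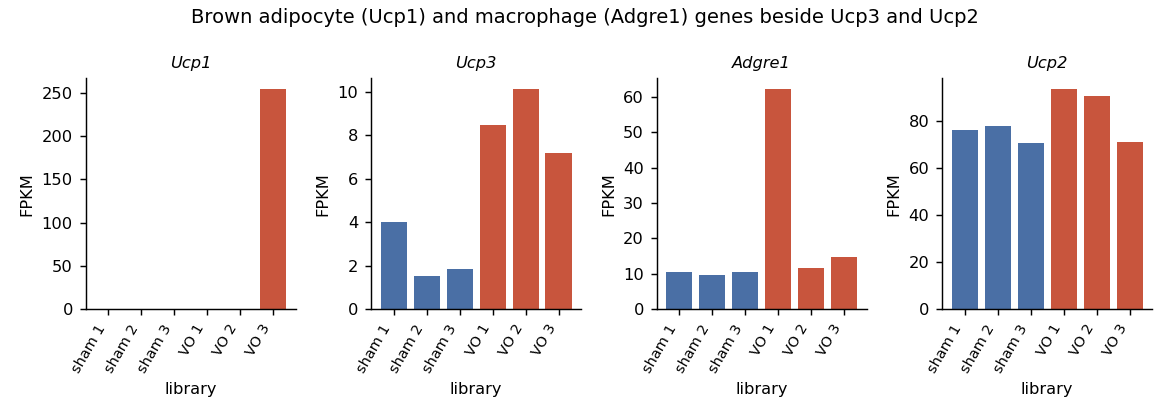
FPKM by library of Ucp1, a gene of brown fat cells, beside Ucp3, and of Adgre1, a macrophage gene, beside Ucp2, with sham in blue and VO in red. Ucp1 reads 254 FPKM in VO 3 and 0 elsewhere while Ucp3 reads 7.16 to 10.1 FPKM in all VO libraries. Adgre1 reads 62.1 FPKM in VO 1 and 11.6 FPKM in VO 2, where Ucp2 is at 93.3 and 90.3 FPKM.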

How the data were processed

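The data are RNA-seq of RAs, with 3 libraries from sham and 3 from VO mice. The authors aligned reads with HISAT2, counted fragments per gene with featureCounts and deposited FPKM, computed from counts and gene length. The submitters' processing notes name HISAT2 2.0.5, featureCounts 1.5.0-p3 and the builds GRCm38 and mm10. The annotation release and the handling of fragments on several genes are not given in the sources used here. Genes with coordinates in the text carry those of the table. The deposited FPKM times gene length were whole multiples of 1 step per library (tolerance 0.01 fragments), which gave back the fragments. They already carried a scaling between libraries, with a median-of-ratios factor of 1 in each. One incomplete line was left out, and 26706 genes were above 0.

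After median-of-ratios scaling, genes were kept if their mean FPKM reached 1, and log2(FPKM + 0.1) entered limma 3.58.1 (lmFit, then eBayes with trend; R 4.3.3). The model compared VO with sham and had no covariate. P-values are two-sided and were adjusted by Benjamini-Hochberg over 12627 genes. No p is given for the 9 genes. Voom on the recovered fragments is among the alternatives, and DESeq2, which the authors used, was not run. Exon overlaps were computed on GENCODE M21, whose coordinates were identical to the table's for 7 of the 9 genes (not Angptl4 and Cpt1a). Figures used matplotlib 3.10.9 in Python 3.11.15.

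The 9 genes and every list were chosen with earlier results of these data known. The text names the 9, 13 preset relatives, in each list that is no marker list up to 3 genes per direction with the smallest unadjusted p under 0.05, and the 5 genes most like the target mean. Depth limits precision at low levels, such as the 9 to 27 fragments of Cpt1b. Replicate numbers were not taken as pairs: same-numbered sham and VO libraries had deviations from their group means that correlated across genes at -0.108, 0.0112 and -0.0292.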

Additional observations from a re-analysis of the deposited data

How the results depend on the processing

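The median log2 difference of the targets was 0.78 to 0.94 with all 7, that of the receptors -0.28 to -0.06 and that of the other PPAR targets 0.06 to 0.29 over all alternatives, which were other pseudocounts, filters, scalings, variance settings, array weights, voom, the replicate block and each library left out. Voom, array weights and quantile normalization gave no value for Cpt1b, and the other 6 targets had medians of 0.88, 0.92 and 0.98 there, beside 0.87 for the same 6 as reported. Ppara turned sign on TPM (0.07), with fragment totals (0.02) and without VO 1 (0.12, in a range down to -0.22 with other libraries left out). Ppargc1a turned on TPM (0.08), with quantile normalization, with fragment totals and without sham 3 (0.03 each, down to -0.13 with another left out), Pdk1 without sham 2 (-0.03, up to 0.11), Pdk2 with quantile normalization (0.04) and without VO 1 (0.05, down to -0.26), and Gpihbp1 without sham 2 (-0.09) and without VO 3 (-0.06). The cause was not tested.

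The count of called genes, 1, was 2 with a pseudocount of 1, 3 with a mean of at least 0.1 FPKM, 3 without trend, and 0 with quantile normalization, with robust variance and with any 1 library left out. Higher genes at an unadjusted p, 491, were 840 without filter, 229 with a mean of at least 5 FPKM, 1085 on TPM, 942 with fragment totals, and 274 (without sham 1) to 780 (without VO 2) with 1 library left out. They were also 309 without sham 3 and 306 without VO 1. Lower genes, 1020, were 486 on TPM, 631 with fragment totals, and 600 (without sham 1) to 1221 (without VO 2) with 1 library left out, and 638 without VO 1. TPM was fitted on the same genes, and a filter on TPM itself gave 2 called, 1234 higher and 527 lower. On TPM the median of all genes shifted to 0.13. Fragment totals, the filter on TPM, targets without Cpt1b and the count of targets above sham without each library were chosen after seeing the data.

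A fit with a replicate block gave 0 called, 324 higher and 608 lower, and a median of 0.80 for the targets. The labels do not say that the numbers pair the samples.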
